A study of Mus musculus with 3 samples.

Results

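The 10 genes described here encode enzymes that add phosphate to the microtubule protein tau, or subunits of the main phosphatase that removes it. They were taken by name from 1 table of 54532 genes: the kinases Gsk3a, Gsk3b, Cdk5, Mark1, Mark2, Mark4 and Fyn, the Cdk5 activator Cdk5r1, and the protein phosphatase 2A (PP2A) subunits Ppp2ca and Ppp2r2b. All 10 were found, each once, and all 10 are protein-coding. RNA had been sequenced from the hippocampus of C57BL/6 mice aged 10 months in 3 libraries, 1 per genotype: wild type (WT), PS19, and PS19 carrying Zbp1+/-, that is with 1 Zbp1 allele lost. PS19 mice express a mutant human tau from a transgene under the mouse Prnp promoter, so the PS19 and PS19 Zbp1+/- animals both carry it and the WT animals do not. The labels give neither the sex of the animals nor the number of animals behind a library. With 1 library per genotype there is no replicate spread, so every interval below covers counting error only, and each difference is one between 2 libraries.

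Tau is a neuronal protein that binds microtubules, and phosphate groups on its repeat region and flanks loosen that binding. GSK-3 and CDK5 phosphorylate serines and threonines that precede prolines, the MARK kinases act on the microtubule-binding repeats, and Fyn, a Src family kinase, acts on a tyrosine near the amino terminus. PP2A with a B-type subunit is the main tau phosphatase of the brain. These enzymes are regulated largely by phosphorylation and by partner proteins, which RNA levels do not show.

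Recovered reads summed to between 16400328 and 17109734 per library. The deposited FPKM imply a size of 15826984 for PS19 Zbp1+/-, below the 17109734 reads recovered from it. Read ratios and their intervals below hold for that deposited scaling. Zbp1, the targeted gene, had 91 reads in PS19, 5 in WT and 0 in PS19 Zbp1+/-, which allows up to 3. With so few reads in WT, the comparison with WT is no check of the loss of 1 allele. The read ratio of PS19 Zbp1+/- to PS19 was 0 (0 to 0.045). That is below what 1 remaining allele at the PS19 level would leave, and why was not tested. The PS19 Zbp1+/- library also had 0 reads of Xist, against 11062 in WT and 13350 in PS19, and it alone had reads of the Y-linked Ddx3y (711), so the sex of the animals cannot be told apart from the Zbp1 genotype. Its summed level of 6 choroid plexus markers was 10.5 FPKM (fragments per kilobase of gene and per unit of library size), against 3113 in WT and 1904 in PS19. What part sex or plexus tissue has in the results below was not tested. Hippocampal neuron markers were present in all 3 libraries, with summed levels of 361, 289 and 444 FPKM over 8 genes in WT, PS19 and PS19 Zbp1+/-, but they did not move together, nor did markers of the same field. Of the CA1 markers, Fibcd1 stood at 37.0, 27.0 and 111 FPKM and Wfs1 at 38.8, 27.1 and 28.0, and of the dentate granule markers, Prox1 stood at 8.76, 9.51 and 5.20 FPKM and Calb1 at 24.6, 11.6 and 27.3.

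The 10 genes were well expressed in every library. Their levels ran from 14.6 to 63.2 FPKM in WT, from 12.8 to 54.1 in PS19 and from 15.3 to 88.9 in PS19 Zbp1+/-, against medians of 6.69, 6.83 and 6.69 FPKM over the protein-coding genes analysed. Each gene had at least 1038 reads in each library. Cdk5r1 had the highest level and Mark2 the lowest in all 3 libraries. In WT the order below Cdk5r1 was Ppp2ca, Cdk5, Gsk3a, Fyn, Ppp2r2b, Mark4, Gsk3b and Mark1. The neighbours Cdk5 and Gsk3a did not differ beyond counting error in WT (ratio of levels 1.05, exact Clopper-Pearson 95% interval 0.984 to 1.12), nor did Mark1 and Mark2 (1.06, 0.986 to 1.14). In PS19 the pairs Gsk3a and Cdk5, Ppp2r2b and Gsk3b, and Mark1 and Mark2 did not differ beyond it. In PS19 Zbp1+/- Mark4 stood beside Ppp2ca (Ppp2ca to Mark4 1.02, 0.977 to 1.07) and Cdk5 beside Ppp2r2b (1.02, 0.948 to 1.09), and Mark1 stood clear of Mark2 (1.53, 1.43 to 1.63). As deposited, PS19 was the lowest of the 3 libraries for 8 of the 10 genes, as it was for 37.7% of 12875 protein-coding genes, and PS19 Zbp1+/- was the highest for 8 of 10, as it was for 40.1% of all.

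**Figure D1:**
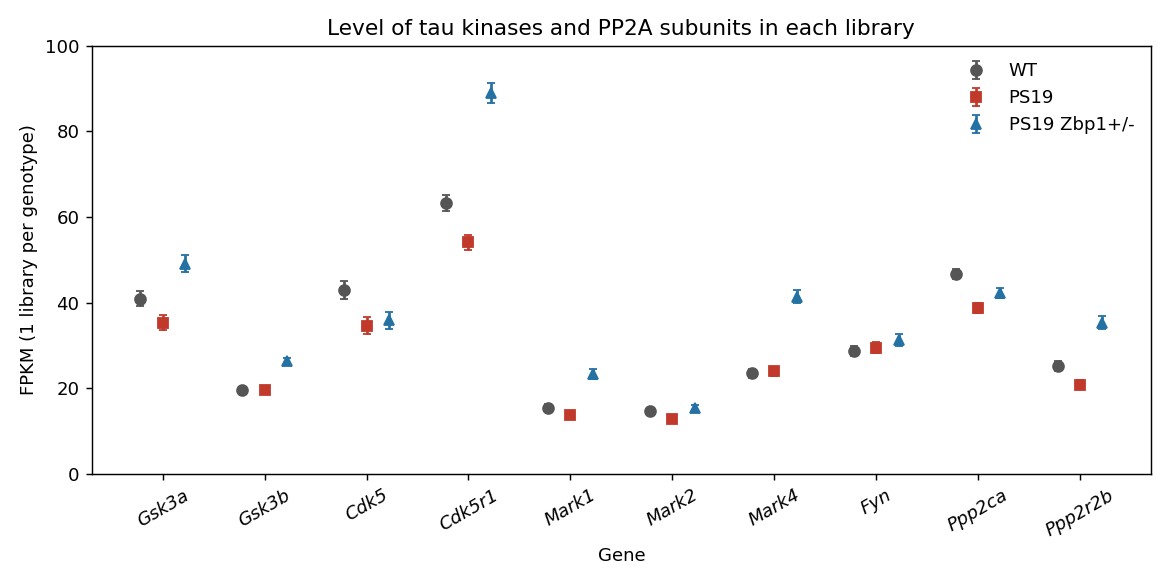
Level of each gene in FPKM (vertical axis, from 0) in the WT, PS19 and PS19 Zbp1+/- libraries, 1 library per genotype. Points are the deposited values and bars are exact 95% Poisson intervals of the reads, that is counting error only; Cdk5r1 reaches 88.9 in PS19 Zbp1+/-, while Fyn stays between 28.6 and 31.3.

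GSK-3 is a kinase made from a pair of genes, and Gsk3a and Gsk3b were both higher in PS19 Zbp1+/- than in the other libraries. Gsk3a (ENSMUSG00000057177; GRCm38 chromosome 7, 25228258 to 25237851, minus strand) had 40.9, 35.3 and 49.0 FPKM in WT, PS19 and PS19 Zbp1+/-, from 2046, 1771 and 2251 reads. Gsk3b (ENSMUSG00000022812; chromosome 16, 38089001 to 38246084, plus strand) had 19.6, 19.5 and 26.3 FPKM, from 3323, 3314 and 4085 reads. WT and PS19 were thus level for Gsk3b, with a read ratio of 0.995 (0.948 to 1.04) per library size, while Gsk3a was lower in PS19 at 0.864 (0.810 to 0.921). In PS19 Zbp1+/- against PS19 the read ratios were close, 1.39 (1.30 to 1.48) for Gsk3a and 1.35 (1.29 to 1.41) for Gsk3b. The ratio of Gsk3b to Gsk3a within a library, which no scaling of libraries can change, was 0.479, 0.552 and 0.535 in WT, PS19 and PS19 Zbp1+/-. It was 1.15-fold higher in PS19 than in WT (1.06 to 1.25) and did not differ beyond counting error between PS19 Zbp1+/- and PS19 (0.970, 0.897 to 1.05). The GC contents of these genes are far apart, 59.8% for Gsk3a and 46.1% for Gsk3b, and so are their gene lengths, 2900 and 9831 bases. The correction for GC content and length described below changes this picture. Corrected, the log2 differences between PS19 and WT were -0.071 for Gsk3a and -0.10 for Gsk3b, and those between PS19 Zbp1+/- and PS19 were 0.14 and 0.47. In PS19 minus WT the GC bin that holds Gsk3b had a median of -0.0088 over all genes. What part length has in the correction was not tested. The antisense gene 9130221H12Rik overlaps Gsk3a and had 79, 56 and 40 reads; whether counting used strand is not stated, so reads of the pair may not be told apart.

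Cdk5 and its activator did not move together. CDK5 is an atypical cyclin-dependent kinase of neurons that is active only when bound to p35, encoded by Cdk5r1, or p39, encoded by Cdk5r2. Cdk5 (ENSMUSG00000028969; chromosome 5, 24418241 to 24423530, minus strand) had 43.0, 34.6 and 35.8 FPKM in WT, PS19 and PS19 Zbp1+/-, from 1607, 1297 and 1230 reads. Cdk5r1 (ENSMUSG00000048895; chromosome 11, 80477023 to 80481184, plus strand) had 63.2, 54.1 and 88.9 FPKM, from 4536, 3892 and 5858 reads. Cdk5 was highest in WT, and both PS19 libraries sat below it; Cdk5r1 was highest in PS19 Zbp1+/-. Between PS19 and WT the read ratios were 0.805 (0.748 to 0.867) for Cdk5 and 0.856 (0.820 to 0.894) for Cdk5r1. Between PS19 Zbp1+/- and PS19 that of Cdk5 was 1.04 (0.957 to 1.12), and that of Cdk5r1 was 1.64 (1.58 to 1.71).

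Within each library the ratio of activator to kinase showed the same split. Cdk5r1 to Cdk5 was 1.47, 1.56 and 2.48 in WT, PS19 and PS19 Zbp1+/-. From PS19 to PS19 Zbp1+/- this ratio differed 1.59-fold (exact conditional 95% interval 1.45 to 1.73), and PS19 and WT did not differ in it beyond counting error (1.06, 0.976 to 1.16). Cdk5r2, the other activator gene, stood at 98.0, 74.1 and 167 FPKM, and its ratio to Cdk5 was 2.28, 2.14 and 4.65 in WT, PS19 and PS19 Zbp1+/-. The GC content of the longest transcript, a property that moved with the differences in these libraries, was 53.4% for Cdk5, 54.2% for Cdk5r1 and 63.9% for Cdk5r2.

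The MARK kinases release tau from microtubules by phosphorylating its repeats, and of the 3 studied here Mark1 and Mark4 differed most in PS19 Zbp1+/- and Mark2 least. Mark4 (ENSMUSG00000030397; chromosome 7, 19424775 to 19458821, minus strand) had 23.5, 23.9 and 41.4 FPKM in WT, PS19 and PS19 Zbp1+/-, from 1890, 1931 and 3059 reads. Mark1 (ENSMUSG00000026620; chromosome 1, 184896789 to 184999570, minus strand) had 15.4, 13.8 and 23.4 FPKM, from 1160, 1038 and 1611 reads. Mark2 (ENSMUSG00000024969; chromosome 19, 7275396 to 7341860, minus strand) had 14.6, 12.8 and 15.3 FPKM, from 1994, 1762 and 1923 reads. For Mark4 and Mark1 the PS19 Zbp1+/- library was the high one. Against PS19 the read ratios were 1.73 (1.63 to 1.83) for Mark4, 1.70 (1.57 to 1.83) for Mark1 and 1.19 (1.12 to 1.27) for Mark2. Against WT they were 1.76 (1.67 to 1.87), 1.51 (1.40 to 1.63) and 1.05 (0.987 to 1.12). For PS19 over WT, Mark4 was level at 1.02 (0.957 to 1.09). Mark1 at 0.893 (0.821 to 0.972) and Mark2 at 0.882 (0.827 to 0.941) were lower in PS19.

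The MARK family thus shifted in its make-up. With Mark3, the remaining member, counted in, Mark4 made up 37.0% of the summed FPKM of the family in WT, 40.6% and 45.4% in PS19 and PS19 Zbp1+/-, and Mark2 made up 22.9%, 21.8% and 16.8%. The ratio of Mark1 to Mark2 was 1.06, 1.07 and 1.53, and that of Mark4 to Mark2 was 1.61, 1.86 and 2.71. Between PS19 Zbp1+/- and PS19 these ratios differed 1.42-fold (1.28 to 1.58) and 1.45-fold (1.33 to 1.58). Between PS19 and WT they differed 1.01-fold (0.910 to 1.13) and 1.16-fold (1.06 to 1.27). Mark1 has a lower GC content (50.4%) than Mark2 (57.3%), and Mark4 a higher one (60.6%).

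The sequences before the start sites of Mark1 and Mark2 are shown because these paralogs of near-equal level in WT parted in PS19 Zbp1+/-. They are the 250 bases before the RefSeq start (GRCm38.p6, minus strand, read 5′ to 3′ along the gene), at chr1:184999550-184999799 for Mark1 and chr19:7341861-7342110 for Mark2, with matches to the GC box GGGCGG on either strand in capitals.
Mark1: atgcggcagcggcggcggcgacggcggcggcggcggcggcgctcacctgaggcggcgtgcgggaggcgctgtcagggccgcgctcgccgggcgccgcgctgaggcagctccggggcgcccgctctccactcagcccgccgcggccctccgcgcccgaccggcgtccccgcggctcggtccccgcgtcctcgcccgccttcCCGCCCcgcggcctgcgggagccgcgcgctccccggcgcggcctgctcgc
Mark2: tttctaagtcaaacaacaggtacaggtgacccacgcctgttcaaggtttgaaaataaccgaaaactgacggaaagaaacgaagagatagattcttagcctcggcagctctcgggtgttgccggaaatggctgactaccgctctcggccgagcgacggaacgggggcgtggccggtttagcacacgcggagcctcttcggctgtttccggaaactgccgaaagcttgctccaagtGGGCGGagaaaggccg
Each window held 1 GC box, a motif present in 32.7% of 32851 RefSeq windows of this length, and neither held the cyclic AMP response element TGACGTCA, which 1.55% of windows held. The Mark1 window had a GC content of 85.2% and 52 CG dinucleotides, and the Mark2 window 55.6% and 22, against a median of 6 CG over all windows. By the gene positions given above, Mark1 reaches 184999570, so its window overlaps the gene from 184999550 to there. The Mark2 window lies wholly outside its gene. The table of start sites had entries for 6 of the 10 genes; Cdk5, Cdk5r1, Mark4 and Ppp2r2b were not among them.

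Fyn had the narrowest range of the 10 genes in the FPKM as deposited. Fyn (ENSMUSG00000019843; chromosome 10, 39368855 to 39565381, plus strand) is a membrane-bound tyrosine kinase that tau brings to the postsynaptic side of synapses. It had 28.6, 29.4 and 31.3 FPKM in WT, PS19 and PS19 Zbp1+/-, from 2152, 2221 and 2158 reads. Its read ratio was 1.03 (0.970 to 1.09) for PS19 over WT and 1.06 (0.9998 to 1.13) for PS19 Zbp1+/- over PS19. Under the deposited scaling neither step was thus detectable beyond counting error. The library with the highest level, PS19 Zbp1+/-, was 1.09-fold above WT (1.03 to 1.16) as deposited. That difference, 0.12 on the log2 scale, turned to -0.028 under TPM, -0.026 with reads scaled by their totals and -0.11 with centring on the neuron markers, alternatives that are described below. Under the same alternatives, in that order, Fyn stood at -0.19, -0.099 and -0.37 in PS19 Zbp1+/- minus PS19. In PS19 minus WT its values were 0.17, 0.073 and 0.28. The antisense genes Gm16365 (20, 50 and 27 reads) and Gm16364 (7, 24 and 36 reads) overlap Fyn. Mouse Mapt, the gene of tau itself, stood at 63.0, 65.1 and 65.3 FPKM, and Prnp, whose promoter drives the transgene, at 405, 659 and 512 FPKM.

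The PP2A subunits differed from each other in the same way as Cdk5 and its activator. Ppp2ca encodes the alpha form of the catalytic subunit, and Ppp2r2b encodes a B-type regulatory subunit that is enriched in brain. Ppp2ca (ENSMUSG00000020349; chromosome 11, 52098681 to 52127778, plus strand) had 46.8, 38.7 and 42.3 FPKM in WT, PS19 and PS19 Zbp1+/-, from 6043, 5015 and 5015 reads. Ppp2r2b (ENSMUSG00000024500; chromosome 18, 42637432 to 43059471, minus strand) had 25.2, 20.7 and 35.2 FPKM, from 1733, 1429 and 2223 reads. Both were lower in PS19 than in WT and by a like amount, with read ratios of 0.828 (0.798 to 0.860) and 0.823 (0.767 to 0.883). In PS19 Zbp1+/- against PS19 the ratio of Ppp2ca was 1.09 (1.05 to 1.14), which left it below WT (0.905, 0.871 to 0.939), and that of Ppp2r2b was 1.70 (1.59 to 1.82), which put it above WT (1.40, 1.31 to 1.49). With 5015 reads of Ppp2ca in both libraries, its ratio of 1.09 comes from the deposited scaling alone. Its log2 difference was -0.060 with reads scaled by their totals, -0.15 under TPM and -0.33 with centring on the neuron markers.

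Within a library Ppp2r2b to Ppp2ca was 0.539, 0.536 and 0.833 in WT, PS19 and PS19 Zbp1+/-, a 1.56-fold difference between the last pair (1.44 to 1.68) and none beyond counting error between the first (0.994, 0.917 to 1.08). The balance between the catalytic genes was nearly constant: Ppp2cb, the beta form, to Ppp2ca was 1.82, 1.72 and 1.87. Among the 4 B55 regulatory genes Ppp2r2c had the highest level, with 65.6%, 67.0% and 66.3% of their summed FPKM, and Ppp2r2b held 16.5%, 15.6% and 18.9%. In WT, PS19 and PS19 Zbp1+/- the 7 kinases and Cdk5r1 summed to 3.46, 3.76 and 4.02 times Ppp2ca plus Ppp2r2b. That PP2A sum leaves out genes of higher level. In the same order, Ppp2r1a stood at 177, 144 and 212 FPKM and Ppp2cb at 85.1, 66.7 and 79.0. The ratio thus holds for the chosen genes only and is no measure of the balance of tau kinases to PP2A.

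**Figure D2:**
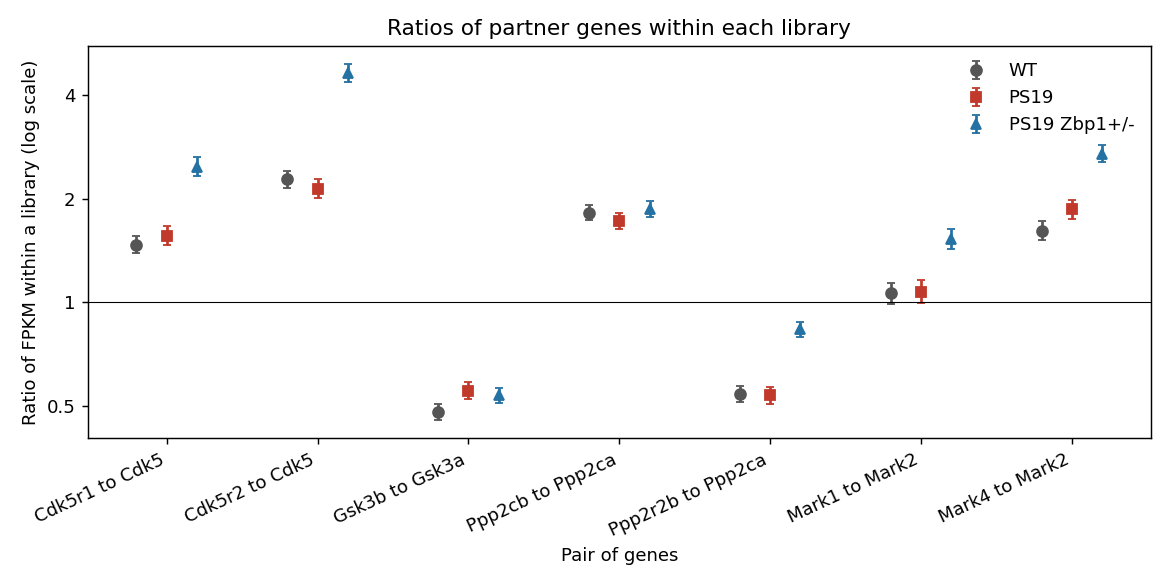
Ratio of the FPKM of 2 genes within each library (vertical axis, log scale) for 7 pairs, with exact 95% intervals for counting error. The ratios of Cdk5r1 and Cdk5r2 to Cdk5, Ppp2r2b to Ppp2ca, and Mark1 and Mark4 to Mark2 are highest in PS19 Zbp1+/-, at 2.48, 4.65, 0.833, 1.53 and 2.71.

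Differences between libraries were next set against those of all genes, on the log2(FPKM + 1) scale, which understates the change of low genes but little at these levels. Between PS19 and WT, none of the 10 genes passed 2-fold, as 2.5% of 12703 protein-coding genes did. None was at least 1.5-fold higher (6.34% of all) or at least 1.5-fold lower (2.71% of all). Of the 10 differences 8 lay below 0, from -0.30 for Cdk5 to 0.041 for Fyn, and their median was -0.19, against -0.026 over all genes, of which 46.3% lay above 0. The middle range of all genes, from the 25th to the 75th percentile, was -0.21 to 0.18, and Cdk5, Ppp2r2b, Ppp2ca and Cdk5r1 lay below it.

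Between PS19 Zbp1+/- and PS19, 4 of the 10 genes passed 1.5-fold upwards, as did 9.37% of 12772 genes: Mark4 by 0.77 log2 units, Ppp2r2b by 0.74, Mark1 by 0.72 and Cdk5r1 by 0.71. Gsk3a at 0.46 and Gsk3b at 0.41 followed, then Mark2 at 0.24, Ppp2ca at 0.12, Fyn at 0.083 and Cdk5 at 0.049. None was at least 1.5-fold lower (12.1% of all) and none passed 2-fold (7.16% of all). All 10 differences lay above 0, as did 53.7% of all genes, with a median of 0.44 against 0.041 over all genes. Between PS19 Zbp1+/- and WT, Mark4 alone was at least 1.5-fold higher on the log2(FPKM + 1) scale, by 0.79 log2 units, as 6.71% of 12436 genes were. Mark1, with a read ratio of 1.51, fell just short on that scale. None was at least 1.5-fold lower (7.12% of all) and none passed 2-fold (3.35% of all). Mark1 followed at 0.57, Cdk5r1 at 0.49, Ppp2r2b at 0.47 and Gsk3b at 0.40, while Cdk5 at -0.25 and Ppp2ca at -0.14 lay below 0; the median was 0.33 against 0.010. Every pair of these 3 comparisons shares a library, so they are not independent of each other.

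**Figure D3:**
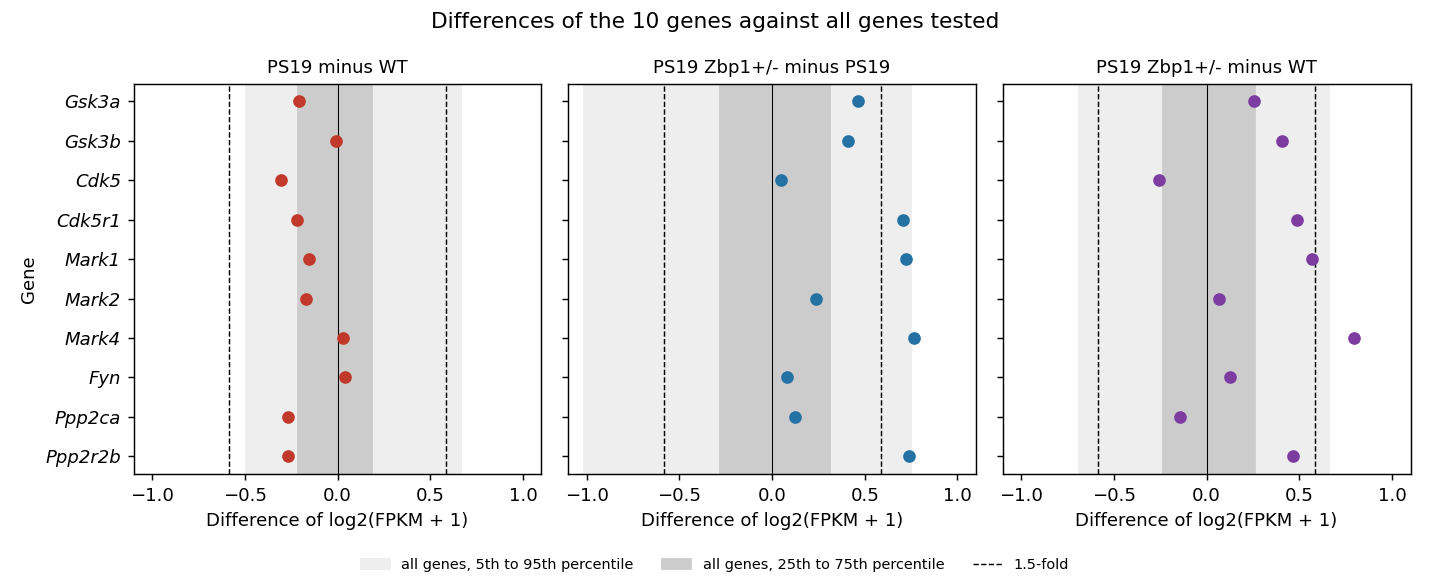
Difference of log2(FPKM + 1) for each of the 10 genes (points) in 3 comparisons of libraries, over the 25th to 75th (dark) and 5th to 95th (light) percentiles of all protein-coding genes tested with 1.5-fold marked by dashed lines. In PS19 Zbp1+/- minus PS19, Mark4, Ppp2r2b, Mark1 and Cdk5r1 lie past 1.5-fold, between 0.71 and 0.77.

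Most neuron markers moved in the same direction as most of the 10 genes. The medians of both sets were close in PS19 minus WT and in PS19 Zbp1+/- minus PS19, but single markers and single genes differed widely. Of 12 such markers, 10 were lower in PS19 than in WT, with a median difference of -0.24. In PS19 Zbp1+/- 10 were higher than in PS19, with a median of 0.46. The exceptions in these comparisons were Gad1, at 0.0025 and -0.057, and Gad2, at 0.38 and -0.28. Slc17a7, in contrast, stood at 206, 172 and 371 FPKM in WT, PS19 and PS19 Zbp1+/-. The marker median used below thus does not describe every marker. The summed level of the 12 markers was 1490, 1254 and 1897 FPKM in WT, PS19 and PS19 Zbp1+/-, and none was at 0 reads in any library. Over the same libraries the summed level was 375, 1197 and 401 FPKM for 7 astrocyte markers, 160, 550 and 169 for 8 microglia markers, and 897, 1607 and 584 for 8 oligodendrocyte markers, again with none at 0 reads. The astrocyte sum was mostly Gfap in PS19, at 98.4, 768 and 112 FPKM, and the median difference of that list between PS19 and WT was 0.54. In the microglia list that median was 1.49, but P2ry12 at -0.13 and Tmem119 at 0.16 differed little. In such bulk tissue fewer cells of a type and less RNA per cell cannot be told apart. Taken relative to the neuron marker median, the median of the 10 genes was 0.056 between PS19 and WT and -0.021 between PS19 Zbp1+/- and PS19, and no gene then passed 1.5-fold. On that footing Mark4 at 0.31, Ppp2r2b at 0.28, Mark1 at 0.26, Cdk5r1 at 0.25 and Gsk3a at 0.0045 lay above 0, and Cdk5 at -0.41, Fyn at -0.37, Ppp2ca at -0.33, Mark2 at -0.22 and Gsk3b at -0.047 below it. Centring subtracts 1 value from all genes, so the spread among the 10 genes is unchanged by it.

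The scaling of the libraries also bore on these values. In the FPKM as deposited, the median difference over all genes was close to 0. Rescaling to an equal sum (transcripts per a fixed total, TPM) moved that median from 0.041 to -0.20 in PS19 Zbp1+/- minus PS19, from -0.026 to 0.082 in PS19 minus WT, and from 0.010 to -0.12 in PS19 Zbp1+/- minus WT. The shares of all genes at least 1.5-fold higher and lower then became 3.73% and 20.4%, 8.70% and 1.44%, and 3.84% and 10.9%. With reads scaled by their totals they were 5.01% and 16.9% in PS19 Zbp1+/- minus PS19 and 3.92% and 10.9% in PS19 Zbp1+/- minus WT. Centred on the neuron markers they were 1.72% and 35.9% in PS19 Zbp1+/- minus PS19, 13.8% and 0.583% in PS19 minus WT, and 2.48% and 15.9% in PS19 Zbp1+/- minus WT. Under TPM the 4 genes past 1.5-fold between PS19 Zbp1+/- and PS19 fell short of it, at 0.49 for Mark4, 0.46 for Ppp2r2b, 0.45 for Mark1 and 0.43 for Cdk5r1, and Cdk5, Mark2, Fyn and Ppp2ca turned negative. Relative to the median of all genes, the median of the 10 genes was 0.40 as deposited and 0.36 under TPM in that comparison, and -0.16 and -0.15 between PS19 and WT. Against genes with a mean FPKM of at least 5 it was smaller, at 0.30 and -0.10 as deposited in these comparisons.

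**Figure D4:**
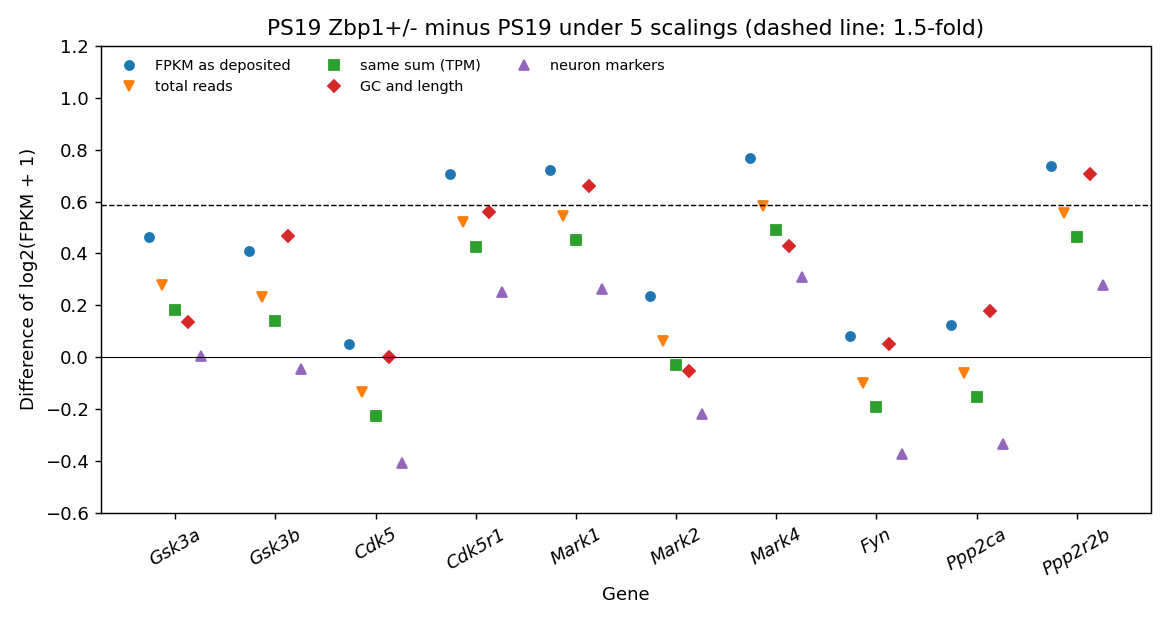
Difference of log2(FPKM + 1) between PS19 Zbp1+/- and PS19 for each of the 10 genes under the deposited scaling and 4 others; the dashed line is 1.5-fold. Mark4, Ppp2r2b, Mark1 and Cdk5r1 are the 4 highest as deposited and under total reads, TPM and neuron centring, and under the correction for GC content and length Gsk3b, at 0.47, stands above Mark4, at 0.43.

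GC content moved with the differences of the PS19 Zbp1+/- library. In PS19 Zbp1+/- minus PS19 the median over all genes ran from -0.18 in the lowest of 10 GC bins to 0.31 in the highest, whereas in PS19 minus WT it stayed between -0.10 and -0.0025. The 10 genes spanned 44.6% (Ppp2ca) to 60.6% (Mark4). After subtraction of the median of genes of like GC content and length, Ppp2r2b at 0.71 and Mark1 at 0.66 stayed past 1.5-fold between PS19 Zbp1+/- and PS19, and Cdk5r1 at 0.56 and Mark4 at 0.43 did not. Gsk3b stood at 0.47, Gsk3a at 0.14 and Mark2 at -0.053. Mark2 was also lower than WT on this footing, at -0.41 in PS19 Zbp1+/- and -0.31 in PS19. The GC bin that holds Mark2 had medians of 0.15 and -0.029 over all genes in these comparisons. What part its gene length of 7942 bases had was not tested.

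**Figure D5:**
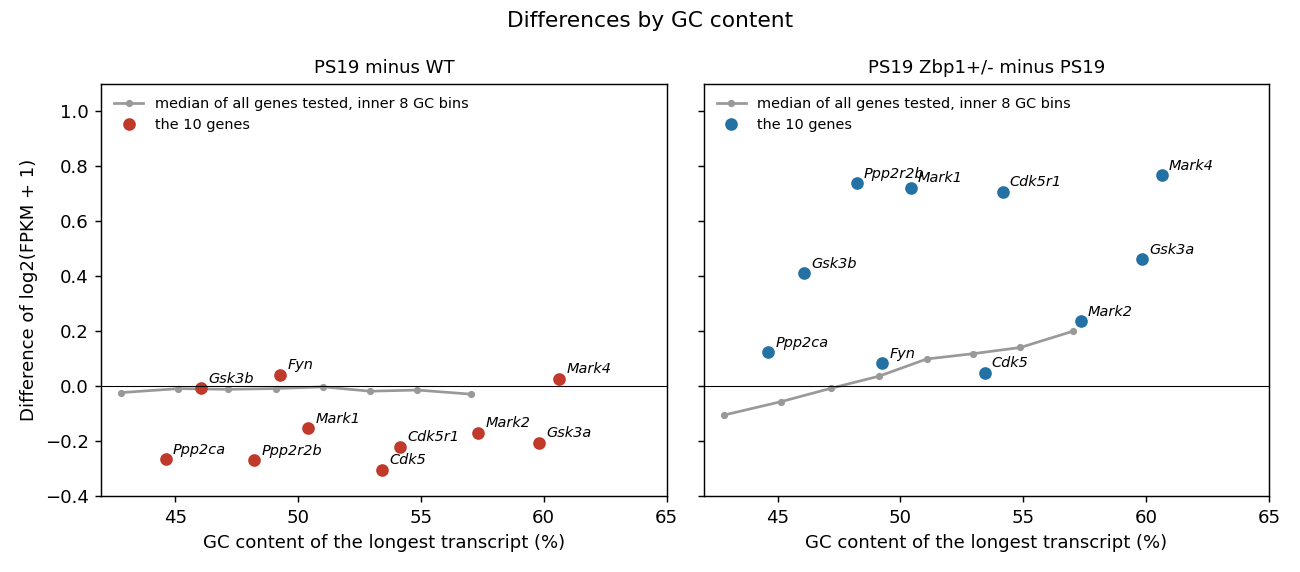
Difference of log2(FPKM + 1) against the GC content of the longest transcript for the 10 genes (points) and the median of all genes in the inner GC bins (grey line), for PS19 minus WT (left) and PS19 Zbp1+/- minus PS19 (right). On the right Ppp2r2b, Mark1, Cdk5r1 and Gsk3b stand well above the grey line, Mark4 at 0.77 lies above the median of 0.31 of the highest bin, which is not drawn, and Mark2, Fyn and Cdk5 lie near the line.

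The rest of the tau phosphorylation machinery was read from lists of kinases, PP2A subunits, PP2A regulators, other phosphatases and upstream regulators. Their counts and medians are for the FPKM as deposited, and another scaling moves each gene by about the shift in the all-gene median given above. None of these values is corrected for GC content. It was 63.9% for Cdk5r2, 60.2% for Frat2, 59.8% for Brsk1, 59.7% for Frat1, 56.5% for Ttbk1 and 56.4% for Ptpn5. The GC bins of these genes had medians of 0.20 or 0.31 over all genes in PS19 Zbp1+/- minus PS19. Ppme1 (53.0%) and Mapk10 (45.6%) lay in bins with medians of 0.12 and -0.056. Of 32 further tau kinases and activators, none passed 1.5-fold between PS19 and WT, where 6.34% of all genes passed it upwards and 2.71% downwards. Between PS19 Zbp1+/- and PS19, 4 passed it upwards and none downwards, against 9.37% and 12.1% of all genes, and their median was 0.23 against 0.041 over all genes. They were Cdk5r2 at 1.16, Brsk1, a kinase of neuronal polarity, at 0.72, Ttbk1, a tau-tubulin kinase of neurons, at 0.66, and Mapk10, the neuronal JNK, at 0.59. Brsk1 stood at 59.6, 52.7 and 87.3 FPKM in WT, PS19 and PS19 Zbp1+/-, Ttbk1 at 10.6, 11.1 and 18.0, and Mapk10 at 25.7, 23.5 and 35.9. Ttbk1 and Cdk5r2 were also past 1.5-fold upwards between PS19 Zbp1+/- and WT, at 0.71 and 0.76, as 6.71% of all genes were.

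None of the 16 further PP2A subunits passed 1.5-fold in any comparison, and their medians were -0.061, 0.23 and 0.048 in PS19 minus WT, PS19 Zbp1+/- minus PS19 and PS19 Zbp1+/- minus WT. In the same order, 6.34%, 9.37% and 6.71% of all genes were at least 1.5-fold higher and 2.71%, 12.1% and 7.12% lower. Of the 11 PP2A regulators 10 were abundant enough to compare. Ppme1, the esterase that removes the methyl group from the catalytic subunit, had 44.7, 40.2 and 64.7 FPKM in WT, PS19 and PS19 Zbp1+/-, and in the last it was 0.67 log2 units above PS19. Ier3, an early response gene that acts on PP2A, had 4.71, 7.88 and 4.86 FPKM, with differences of 0.64 between PS19 and WT and -0.60 between PS19 Zbp1+/- and PS19. All 8 other phosphatase genes were lower in PS19 than in WT, where 46.3% of all genes were higher, and their median was -0.28. Of these 8, Ppp3r1, the regulatory subunit of calcineurin, was the one at least 1.5-fold lower, as 2.71% of all genes were. Ppp3r1 had 293, 195 and 202 FPKM in WT, PS19 and PS19 Zbp1+/-, so that both PS19 libraries lay below WT.

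Among 16 regulators of GSK-3, CDK5, MARK and Fyn, 15 could be compared and 14 of them were higher in PS19 Zbp1+/- than in PS19, as 53.7% of all genes were, with a median of 0.26. Frat1 and Frat2 encode proteins that bind GSK-3 and keep it from Axin. Frat1 had 7.52, 4.51 and 14.1 FPKM in WT, PS19 and PS19 Zbp1+/-, from 339, 204 and 585 reads, which made it the gene of these lists with the widest range. Its differences were -0.63 between PS19 and WT and 1.46 between PS19 Zbp1+/- and PS19, a read ratio of 3.13 (2.67 to 3.69). Frat2 had 7.13, 4.58 and 7.89 FPKM, 0.67 log2 units higher in PS19 Zbp1+/- than in PS19. Ptpn5, the striatum-enriched phosphatase STEP that acts on Fyn, had 25.3, 20.8 and 35.0 FPKM and a difference of 0.73 between PS19 Zbp1+/- and PS19.

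Mark4 had the widest range of the 10 genes over the 3 libraries, 0.79 log2 units, and Fyn the narrowest, 0.12. Of 2719 protein-coding genes with a mean level within 2-fold of that of Mark4, 29 lay within 0.1 log2 units of its differences in the PS19 to WT and the PS19 Zbp1+/- to PS19 comparison. The closest by Euclidean distance in these differences, over 3 libraries, were Nrxn2 (24.0, 24.6 and 42.3 FPKM), Rnf157 (25.2, 25.6 and 44.5) and Pcdh1 (38.3, 39.2 and 68.4).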

How the data were processed

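RNA-seq was available for 3 hippocampal libraries, 1 per genotype. The authors deposited FPKM values per gene; the unit is given by the table's name. Trim Galore 0.6.5, STAR 2.5.3a and featureCounts 2.0.4, with the build mm39, are named in the submitters' processing notes; the gene positions in the table, however, are those of GENCODE M21 (GRCm38) for 98.3% of 54495 gene IDs and for all 10 genes, so GRCm38 is given. Strand use in counting is not given in the sources used here.

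FPKM times gene length was a whole multiple of 1 step, within 0.001 reads, in 100% of values, which gave whole reads. Library sizes implied by the steps were 17253479 (WT), 17287957 (PS19) and 15826984 (PS19 Zbp1+/-). The PS19 Zbp1+/- size lies below the 17109734 reads recovered from that library. The WT and PS19 sizes lie above theirs (16746085 and 16400328). They are thus divisors of the deposited FPKM rather than totals of the recovered reads. Read ratios used these sizes, with exact 95% intervals (Clopper-Pearson) that cover counting error only, since PCR copies were not told apart. Differences were of log2(FPKM + 1), for protein-coding genes that reached 1 FPKM in 1 or both libraries of a comparison. No p-value was computed. GC content was that of a gene's longest transcript in GENCODE M21, known for 99.9% of genes tested, in 10 GC and 5 length bins. BLAST 2.17.0 (90% identity or more over 300 bases or more) found a copy of Gsk3a, the pseudogene Gm6275, with 0 reads in every library. Its match for Ppp2ca, 9430098F02Rik, is no copy but an antisense gene that overlaps Ppp2ca by 3249 bases. It too had 0 reads in every library. Read recovery, calls and intervals were tested on simulated data.

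The members and lists were chosen with earlier results of these data known. Named beyond the 10 genes were, by rule, Mapt, Prnp, Zbp1, genes of each list past 1.5-fold, and the 3 genes most like the member of widest range; family shares (with Mark3 and Ppp2r2c), counts of the lowest or highest library, GC bin medians, the BLAST length minimum, the promoters shown and the 0.1 log2 band within which a median counts as unmoved were chosen after values had been seen. The 5 T cell markers summed to 0.924, 1.32 and 0.471 FPKM, the 4 oligodendrocyte precursor markers summed to 87.0, 102 and 129 FPKM and the 5 endothelial markers to 37.2, 40.1 and 54.0 in WT, PS19 and PS19 Zbp1+/-. Alternatives were pseudocounts of 0.1 and 0.5, no filter, a mean FPKM of at least 5, scaling to an equal sum (TPM), by total reads or by the median ratio, centring on neuron markers, correction for GC content and length, and genes of every biotype. Software was scipy 1.17.1, numpy 2.4.6, pandas 2.3.3 and matplotlib 3.10.9 under Python 3.11.15.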

Additional observations from a re-analysis of the deposited data

How the results depend on the processing

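No library could be left out, since each genotype had 1. Pseudocounts, the filters on low values and scaling by the median ratio kept the count of genes past 1.5-fold, and the medians within 0.1 log2 units, except that a pseudocount of 0.1 brought Mark1 past 1.5-fold between PS19 Zbp1+/- and WT, making 2 genes. Rescaled to the same sum (TPM), the median of the 10 genes was -0.065 in PS19 minus WT, 0.16 in PS19 Zbp1+/- minus PS19 and 0.18 in PS19 Zbp1+/- minus WT. Scaled by total reads the last pair were 0.25 and 0.18, and under both scalings 0 genes passed 1.5-fold between PS19 Zbp1+/- and PS19, with Mark4 kept against WT. Centred on the neuron markers the medians were 0.056, -0.021 and 0.10, and 0 genes passed 1.5-fold. Corrected for GC content and length, the later medians were 0.30 and 0.22, and 2 and 0 genes passed. Of the 30 differences of the 10 genes, 12 changed sign with neuron centring, 7 under TPM, 6 with total reads, 2 with the GC and length correction and 1 with the median ratio, none of them a difference past 1.5-fold as deposited. No gene passed 2-fold under any of these. The share of all genes past 2-fold, 2.5%, 7.16% and 3.35% in the 3 comparisons, was 5.05%, 12.6% and 6.70% with a pseudocount of 0.1, 4.60%, 10.3% and 6.85% over genes of every biotype, and 1.44%, 4.15% and 1.89% with no filter. Depth did not limit the 10 genes, whose counting intervals were narrow; the number of libraries did.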
